A study of Mus musculus with 9 samples.

Results

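Nqo1 and Gclm were the most variable of 10 genes of the NRF2 antioxidant pathway among 9 clones of MPC, murine primary cells cultured from pancreatic tumors. Nqo1 differed by 7.42-fold and Gclm by 3.65-fold between the lowest and the highest clone. By contrast, mRNA of Nfe2l2, which encodes NRF2, and of Keap1, which encodes its inhibitor, stayed within 1.31-fold and 1.36-fold. Gclm and Gsr, which serve the making and the recycling of glutathione, rose and fell together across the clones (Pearson's r = 0.907, exact permutation test, adjusted p = 0.032), although this call was lost when any of 8 of the 9 clones was left out. None of the 10 genes passed the test between the prefixes of the library names, beside 0.197% of all genes tested. Against the level of Mettl3 none of the 10 passed either, beside 2.63% of all genes tested.

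The 10 genes are Nfe2l2, Keap1, Nqo1, Gclc, Gclm, Txnrd1, Srxn1, Slc7a11, Gsr and Prdx1, chosen by gene symbol from 18049 genes in the deposited table, and all 10 were found in it. The mice, called WTg, were EL1-Luc/EL1-Tag animals crossed with CAG-Mettl3 animals. The CAG-Mettl3 parent carries the Mettl3 reading frame under the ubiquitous CAG promoter, and in the FVB/N EL1 parent the acinar-specific elastase I promoter drives SV40 large T antigen and luciferase. METTL3 is the catalytic subunit of the N6-methyladenosine RNA methyltransferase. Tumors were minced, attached cells were passaged in DMEM with 10% FBS, and single colonies were picked with cloning cylinders, so that each library is 1 clone. The labels call the cells fibroblasts and the treatment none, whereas the treatment protocol shared by the series names NMS-P937 at 80 nM for 24 h. The labels give neither age nor sex. No clone was grown from tumors without the Mettl3 transgene, so all 9 clones are 1 condition and all carry both transgenes. Nothing states which clones came from separate mice. The tests here treat each library as independent, so their p-values speak for these libraries and not for mice.

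The names of the libraries carry 3 prefixes, whose meaning is not stated. They are written here as prefix A (1 library), prefix B (4 libraries, B1 to B4) and prefix C (4 libraries, C1 to C4). Library A had the fewest reads, 12198036, against 16526375 to 20453901 in the others, and the highest Mettl3, 2184 normalized counts against 468 to 621. Xist was at 29664 to 32912 normalized counts in the prefix B libraries and at 8.39 or less in the others. Ddx3y, a gene of the Y chromosome, was at 0 in prefix B and at 2376 to 2720 in the others. By these 2 genes the prefix B libraries look female and the others male, and so look to come from different mice. All 12 macrophage markers examined were above 3 reads in every clone, and their sum made up 2.16% to 3.36% of all normalized counts. Of 13 fibroblast markers, 12 were above 3 reads in every clone, with a sum of 1.43% to 3.85%. Of 7 epithelial markers, 6 were in the table and 3 were above 3 reads in every clone, while 1, Epcam, was at 0 throughout. The epithelial sum was low, at 27.5 to 199 normalized counts. The summed acinar markers were at 2415 in C3 and at 144 to 396 elsewhere. In bulk RNA, fewer cells of a type and less RNA per cell cannot be told apart.

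NRF2 is a transcription factor that is made continuously and destroyed continuously. KEAP1 holds it in the cytoplasm and presents it to a CUL3-RBX1 ubiquitin ligase, and electrophiles or oxidants that modify the cysteines of KEAP1 halt this destruction. NRF2 then pairs with a small MAF protein on antioxidant response elements and raises genes for glutathione synthesis, for the thioredoxin and peroxiredoxin system, and for quinone reduction. Because this control acts mostly on the protein, the mRNA of Nfe2l2 is not a measure of NRF2 activity. The pathway is known in pancreatic tumors, where it lowers reactive oxygen species downstream of oncogenes.

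The core of the antioxidant response element was sought as TGACNNNGC on both strands of promoter windows from RefSeq (GRCm38.p6), which run from 250 bases before to 50 bases after a transcription start site. Windows were matched for 8 of the 10 genes (all but Gclc and Gsr), and 5 of the 8 held the letters, against 14.0% of the 27025 genes with a window. These letters overlap with the AP-1 motif TGACTCA, which lies within the match of Prdx1. The 4 matches that lie before a start site are shown because they are the letters by which NRF2 targets are usually recognised. Each is written 5′ to 3′ on the minus strand, with the match in capitals.
Nfe2l2 (chr2:75704885-75704913): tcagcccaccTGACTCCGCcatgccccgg
Gclm (chr3:122245413-122245441): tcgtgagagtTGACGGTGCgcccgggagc
Prdx1 (chr4:116685456-116685484): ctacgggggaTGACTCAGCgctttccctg
Txnrd1 (chr10:82859104-82859132): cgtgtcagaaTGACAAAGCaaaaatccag
The match began 240 bases before the start site in Nfe2l2, 134 bases before it in Gclm and 133 bases before it in Prdx1. In Txnrd1 it began 92 bases before the start site, in 1 of the 3 windows of the gene. Distances are from the start site of the window, which in Gclm and Txnrd1 lies inside the gene span printed below. Srxn1 held a match 28 bases after the start site. The windows of Keap1, Nqo1 and Slc7a11 held none, which says only that these letters are not in those windows. No binding was measured, so the matches are descriptions of sequence.

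The values below are normalized counts, that is reads scaled by the authors with 1 factor per library, so that 1 read was worth 1.26 to 2.19 normalized counts. A gene with 3 reads in a library would stand at 3.79 to 6.56, and every value of the 10 genes was far above this floor, the lowest being 128 reads for Slc7a11 in A. Gene lengths were not used, so levels are compared between clones and not between genes. Counting error alone would give coefficients of variation (CV) of 0.805% to 6.72% for the 10 genes, and the observed CV exceeded this by 2.86 to 22.0 times. Counting error does not include variation from cloning, culture or library preparation.

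Nfe2l2 (ENSMUSG00000015839, chr2:75675513-75704663) was at 6441 ± 593 normalized counts (mean ± SD, n = 9). It was lowest in C2 at 5604 and highest in C4 at 7319, with a median of 6333. The lowest and the highest clone thus carried the same prefix, and the ranges of prefix B (6033 to 7114) and prefix C overlapped. Keap1 (ENSMUSG00000003308, chr9:21229730-21239332) was at 1534 ± 136 (n = 9), from 1305 in C2 through a median of 1499 to 1781 in B3. Both genes had an SD of 0.13 on the log2 scale, smaller than that of most genes: of the 14705 genes that averaged 10 or more normalized counts over the clones, 20.5% had a smaller SD than Nfe2l2, and Keap1 ranked slightly lower still. All 10 antioxidant genes passed this filter. Of the genes with a mean within 2-fold of their own, 30.9% had a smaller SD than Nfe2l2 and 35.5% a smaller SD than Keap1.

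Nqo1 encodes NAD(P)H quinone dehydrogenase 1, which reduces quinones in a single step without a radical intermediate and is a common readout of NRF2 activity. Nqo1 (ENSMUSG00000003849, chr8:107388225-107403205) was at 383 normalized counts in A, at 803, 2379.6, 1091 and 1924 in B1 to B4, and at 1218, 910.0, 887 and 320.5 in C1 to C4. B2 and B4 stood highest, C4 and A lowest, and each of prefix B and prefix C held clones above and below the mean. The mean was 1102 ± 673 (n = 9, CV 61.1%). The SD of the log2 values was 0.95, larger than that of 90.6% of the 14705 genes and of 97.8% of the 4877 genes with a mean within 2-fold of that of Nqo1. The ratio of Nqo1 to Nfe2l2 ran from 0.0438 in C4 to 0.376 in B2, an 8.58-fold range. A and B2, for example, had near-equal Nfe2l2 (6176 and 6333) and differed widely in Nqo1.

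**Figure D1:**
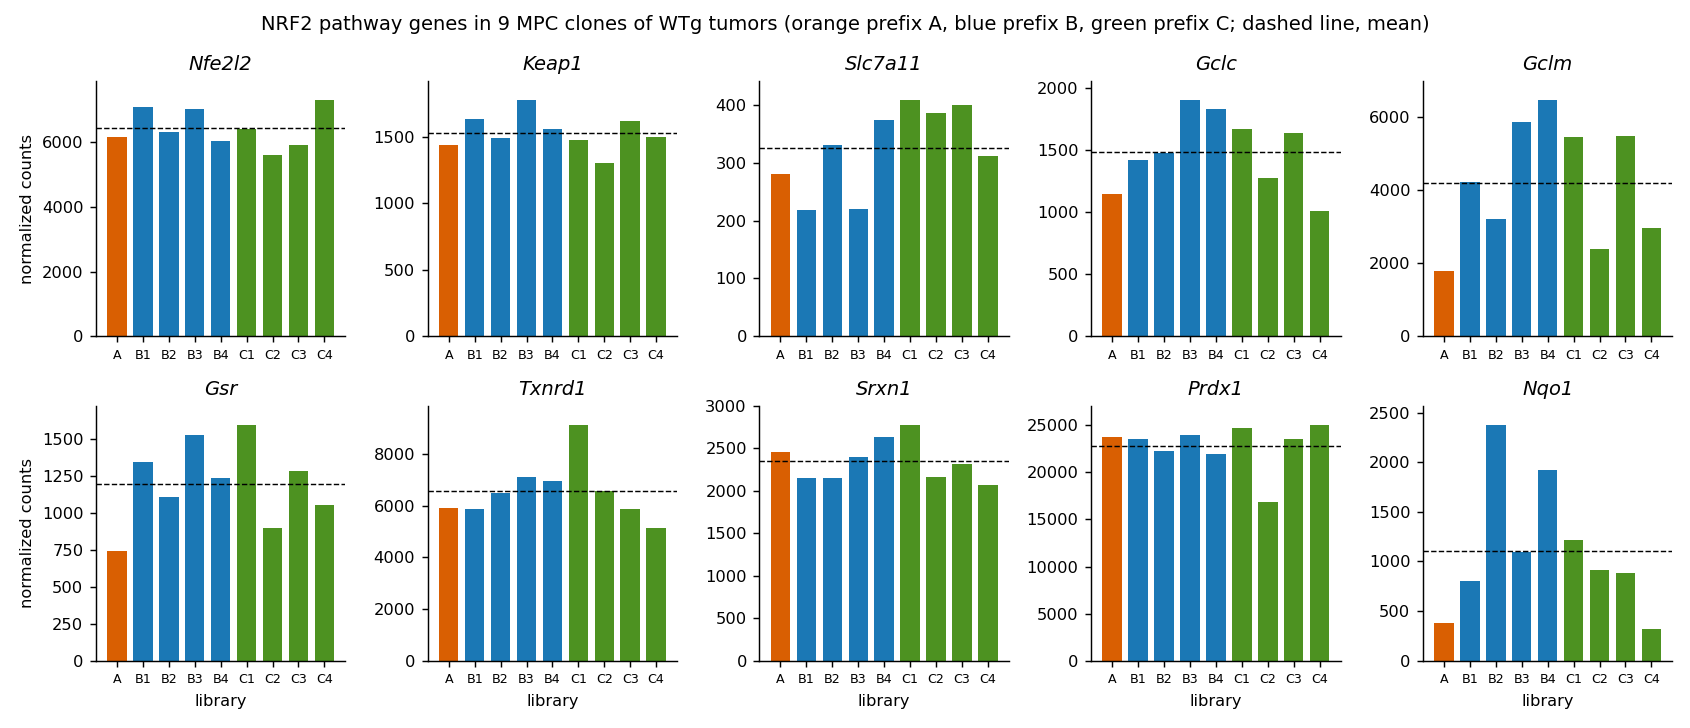
Normalized counts (vertical axis, from 0) of the 10 NRF2 pathway genes in each of the 9 clones, coloured by the prefix of the library name, with the mean over the clones as a dashed line. Bars of Nfe2l2 and Keap1 lie close to their means, Nqo1 runs from 320.5 in C4 to 2379.6 in B2, and Gclm from 1777 in A to 6481 in B4.

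Slc7a11 encodes the light chain of the cystine/glutamate exchanger, which brings in the cysteine for glutathione. Slc7a11 (ENSMUSG00000027737, chr3:50364936-50499087) was at 280.1 normalized counts in A, at 218, 330.4, 219.9 and 373 in B1 to B4, and at 409, 386, 400.1 and 312 in C1 to C4. The lowest clones, B1 and B3, were of prefix B and the 3 highest of prefix C, but B2 and B4 lay above C4. Its mean was 325 ± 73.7 (n = 9, CV 22.7%). The ratio of Slc7a11 to Slc3a2, which encodes the heavy chain that the exchanger shares with other amino acid transporters, ran from 0.0261 in B3 to 0.0689 in C2.

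Gclc and Gclm encode the catalytic and the modifier subunit of glutamate-cysteine ligase, the rate-limiting enzyme of glutathione synthesis. Gclc (ENSMUSG00000032350, chr9:77754535-77794489) was at 1488 ± 305 (n = 9), from 1010.2 in C4 through a median of 1478 to 1907 in B3. Gclm (ENSMUSG00000028124, chr3:122245487-122267215) was at 1777 normalized counts in A, at 4216, 3208, 5879 and 6481 in B1 to B4, and at 5469, 2380.4, 5499 and 2961 in C1 to C4. B3, B4, C3 and C1 stood well above the others, and A and C2 stood lowest. The mean of Gclm was 4208 ± 1696 (n = 9, CV 40.3%), and its log2 SD of 0.65 was larger than that of 83.3% of all genes tested. The modifier varied more than the catalytic subunit, and the ratio of Gclm to Gclc rose from 1.55 in A to 3.54 in B4, with a mean of 2.75 ± 0.707 (n = 9).

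Gsr encodes glutathione reductase, which returns oxidised glutathione to its reduced form with NADPH. Gsr (ENSMUSG00000031584, chr8:33653238-33698162) was at 739.7 normalized counts in A, at 1346, 1106.5, 1531 and 1239 in B1 to B4, and at 1599, 899, 1281 and 1056 in C1 to C4. A and C2 were again the lowest clones, and C1 and B3 the highest. The mean was 1200 ± 281 (n = 9, CV 23.4%). A and C2 also had the largest sums of fibroblast markers, 3.22% and 3.85% of normalized counts.

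Txnrd1 encodes the cytosolic thioredoxin reductase, a selenoprotein that keeps thioredoxin reduced. Txnrd1 (ENSMUSG00000020250, chr10:82833951-82897724) was at 6564 ± 1145 (n = 9), from 5138 in C4 through a median of 6485 to 9146 in C1. C1 stood apart, since the next clone, B3, was at 7097. Srxn1 encodes sulfiredoxin, which repairs overoxidised peroxiredoxins. Srxn1 (ENSMUSG00000032802, chr2:152105524-152111376) was at 2345 ± 244 (n = 9), from 2062 in C4 through a median of 2319.5 to 2779 in C1. Prdx1 encodes an abundant cytosolic peroxiredoxin that reduces hydrogen peroxide. Prdx1 (ENSMUSG00000028691, chr4:116685599-116700000) was at 22849 ± 2465 (n = 9), from 16856 in C2 through a median of 23586 to 25075 in C4. C2 lay below all other clones, of which the lowest, B4, was at 21898. RefSeq lists a pseudogene, Prdx1-ps, with which reads of Prdx1 could be shared, so the level of Prdx1 is uncertain to that extent.

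No clone was high or low for the whole pathway. C1 had the highest value for 4 of the 10 genes, namely Txnrd1, Srxn1, Slc7a11 and Gsr, and the lowest for 0. C4 had the lowest value for 4, namely Nqo1, Gclc, Txnrd1 and Srxn1, and the highest for 2, namely Nfe2l2 and Prdx1. C2 was lowest for Nfe2l2, Keap1 and Prdx1. Thus the clone with the most Nfe2l2 mRNA had the least Nqo1, Gclc, Txnrd1 and Srxn1.

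The spread of the 10 genes was not unusual as a group. Their median log2 SD was 0.27, beside 0.25 over all 14705 genes, and 5 of the 10 lay above that median. Against genes of like level (mean within 2-fold of their own), 6 of the 10 lay above the median. A wider list of 55 genes of the same pathway had a median SD of 0.21, and 19 of the 55 lay above the median of all genes. That count does not allow for level, and against genes of like level most of the 55 lay above the median. Regulators ran from Rbx1 (SD 0.05), a subunit of the ligase that destroys NRF2, to Maff (SD 0.44), a small MAF partner that ran from 853 normalized counts in A to 2147 in B4. Glutathione genes ran from Gpx4 (SD 0.09), the peroxidase of lipid hydroperoxides, to Gsta4 (SD 0.98), a glutathione transferase at 23.8 to 139. A list of thioredoxin, peroxiredoxin, superoxide dismutase and catalase genes ran from Sod2 (SD 0.15), the mitochondrial superoxide dismutase, to Cat (SD 0.55). Cat, the catalase gene, was at 4530 in A to 13139 in B1.

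Among quinone and xenobiotic genes, Cbr1 (SD 0.12), a carbonyl reductase, varied least and Aldh3a1 (SD 2.14), an aldehyde dehydrogenase, most. Aldh3a1 was close to the floor, at 0 in A, C2 and C4 and at most 31.8 in B1. Genes of NADPH supply and of the pentose phosphate pathway ran from Tkt (SD 0.13) to Taldo1 (SD 0.49), both enzymes of that pathway. Genes of haem and ferritin ran from Fech (SD 0.09), which inserts iron into haem, to Blvrb (SD 0.39), a biliverdin reductase. In the plot of the spread by gene list, Nqo1 lies below Aldh3a1 and Gsta4, and Gclm follows next.

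**Figure D2:**
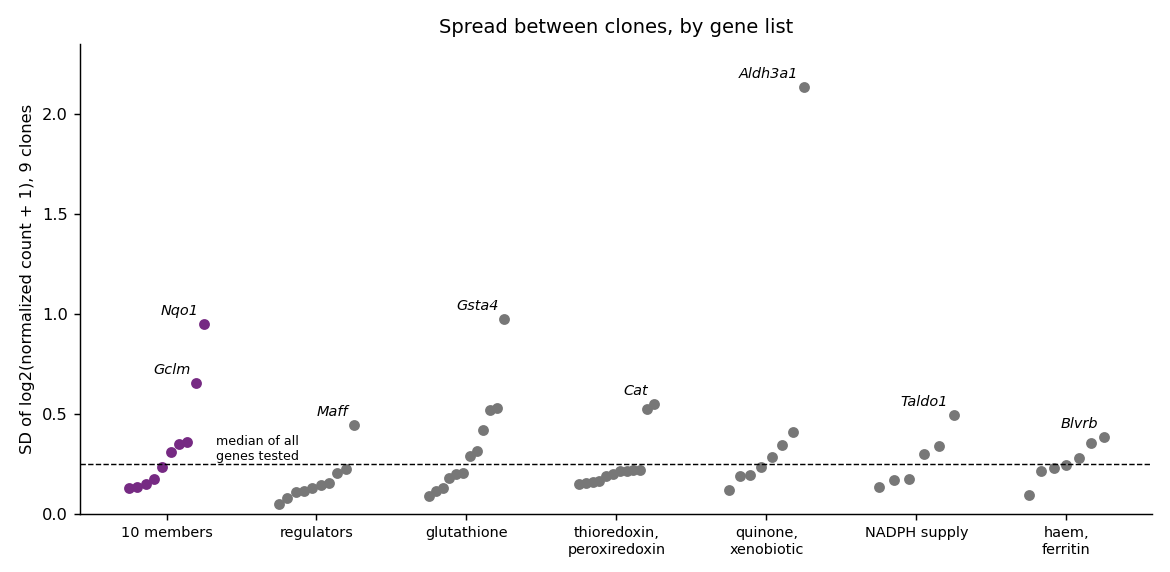
SD of log2(normalized count + 1) over the 9 clones (vertical axis) for the 10 NRF2 pathway genes (purple) and the 55 genes of the wider list (grey), in order of SD within each list, with the median of all genes tested as a dashed line. Nqo1 at 0.95 and Gclm at 0.65 stand above the other 8 genes, which lie at or below 0.36.

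Whether the genes varied together was examined over the 45 pairs of the 10 genes, with Pearson's r of log2 values and an exact two-sided permutation test over all 362880 orderings of the 9 clones. Of the 45 correlations, 34 were positive and the median r was 0.32. One pair passed after Benjamini-Hochberg adjustment over the 45 pairs, Gclm with Gsr (r = 0.907, exact permutation p = 0.00071, adjusted p = 0.032), and 9 pairs passed unadjusted. Pairs of other genes were not examined, so these counts have no share over all genes beside them. By Spearman's rho Gclm with Gsr had rho = 0.75 (exact permutation test, adjusted p = 0.24), and no pair passed. With values centred within prefixes B and C and library A left out, r was 0.823 (exact permutation within prefixes, adjusted p = 0.28). With the 2 clones most distant from the median Gclm level left out, r was 0.715 (exact permutation test, adjusted p = 0.44). Leaving out B4 kept the call (adjusted p = 0.019), and leaving out any of the other 8 clones lost it (adjusted p from 0.050 to 0.15 by the exact permutation test), with r from 0.836 without A to 0.915 without B1.

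The next strongest relation was that of Gclc with Gclm, with r = 0.855 (exact permutation test, adjusted p = 0.085), and it passed without C4 (r = 0.954, adjusted p = 0.018 by the same exact test). Gclc with Gsr had r = 0.744 (adjusted p = 0.16, exact permutation test). Nqo1 followed Gclc with r = 0.765, and Txnrd1 followed Srxn1 with r = 0.768 (adjusted p = 0.15 for each by the exact permutation test). Keap1 with Gclm had r = 0.699 (adjusted p = 0.21, exact permutation test). None of these reached the threshold of 0.05 over all 9 clones.

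No relation of Nfe2l2 mRNA with the other 9 genes passed the test. Leaving Keap1 aside (r = 0.57), its r was 0.15 with Gclm, −0.14 with Gclc, −0.33 with Nqo1, −0.22 with Txnrd1 and −0.27 with Srxn1, 0.38 with Gsr, 0.68 with Prdx1 and −0.70 with Slc7a11, and the smallest adjusted p were 0.15 for Prdx1 and 0.21 for Slc7a11 (exact permutation test). In a limma fit across all genes with the log2 level of Nfe2l2 as the predictor, 0 of the 9 remaining genes passed and 1 passed unadjusted, beside 0 of 14704 genes (0%) adjusted and 1434 (9.75%) unadjusted. A fit with limma voom on recovered reads also called 0 genes. The unadjusted call was Slc7a11, with a slope of −1.87 ± 0.68 (log2 per log2, SE, n = 9, limma adjusted p = 0.51). Prdx1 had a slope of 0.90 ± 0.41 (SE, n = 9, limma adjusted p = 0.52).

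**Figure D3:**
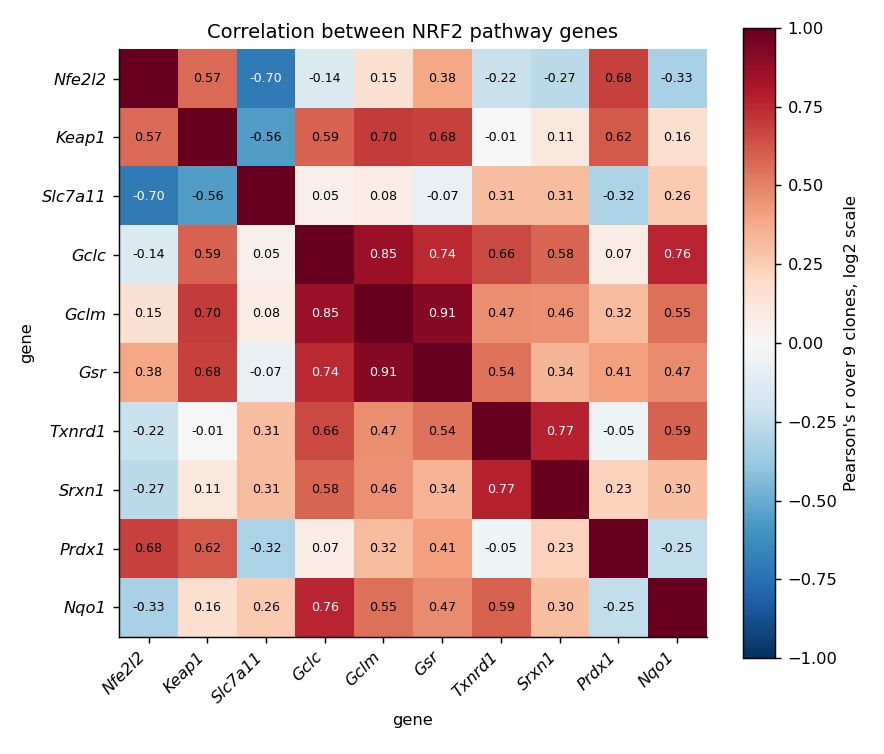
Pearson's r of log2(normalized count + 1) over the 9 clones for each pair of the 10 genes, coloured from −1 (blue) to 1 (red). Gclc, Gclm and Gsr form a block of high values, 0.74 to 0.91, and Nfe2l2 has negative values with 5 of the 9 other genes.

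Sums of macrophage and of fibroblast markers moved with some of these genes. Over the 20 relations of the 10 genes with the summed macrophage and fibroblast markers, 3 passed the exact permutation test after adjustment. How often other genes follow these sums was not examined, so the 3 cannot be called particular to these genes. Nfe2l2 was higher in clones with more macrophage marker RNA (r = 0.838, exact permutation p = 0.0070, adjusted p = 0.046). The rank correlation was 0.867 (exact permutation test, adjusted p = 0.045), and the value centred within prefixes was 0.863 (adjusted p = 0.035, exact permutation within prefixes). Gsr was lower in clones with more fibroblast marker RNA (r = −0.867, rho = −0.883, exact permutation test, adjusted p = 0.039 and 0.045), and centred within prefixes r was −0.941 (exact permutation, adjusted p = 0.035). Keap1 was lower there too (r = −0.861, exact permutation test, adjusted p = 0.039), but its rank correlation of −0.75 did not pass (adjusted p = 0.10, exact permutation test), and r was −0.528 when the 2 clones most distant from the median sum were left out.

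Without library A none of the 3 relations passed (exact permutation test, adjusted p = 0.098 for each, r of 0.842, −0.868 and −0.860 for Nfe2l2, Gsr and Keap1). With each library rescaled to its upper quartile, Nfe2l2 with macrophage markers (r = 0.819) and Gsr with fibroblast markers (r = −0.812) no longer passed (exact permutation test, adjusted p = 0.077 for each). None of the 3 passed without B1, B2, B3, B4, C2 or C4, all 3 passed without C1, and the 2 with fibroblast markers passed without C3. Gclm with the fibroblast sum had r = −0.769 (adjusted p = 0.075, exact permutation test), and Slc7a11 with the macrophage sum had r = −0.726 (adjusted p = 0.12, exact permutation test). The part of the fibroblast sum in the correlation of Gclm with Gsr was not tested.

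**Figure D4:**
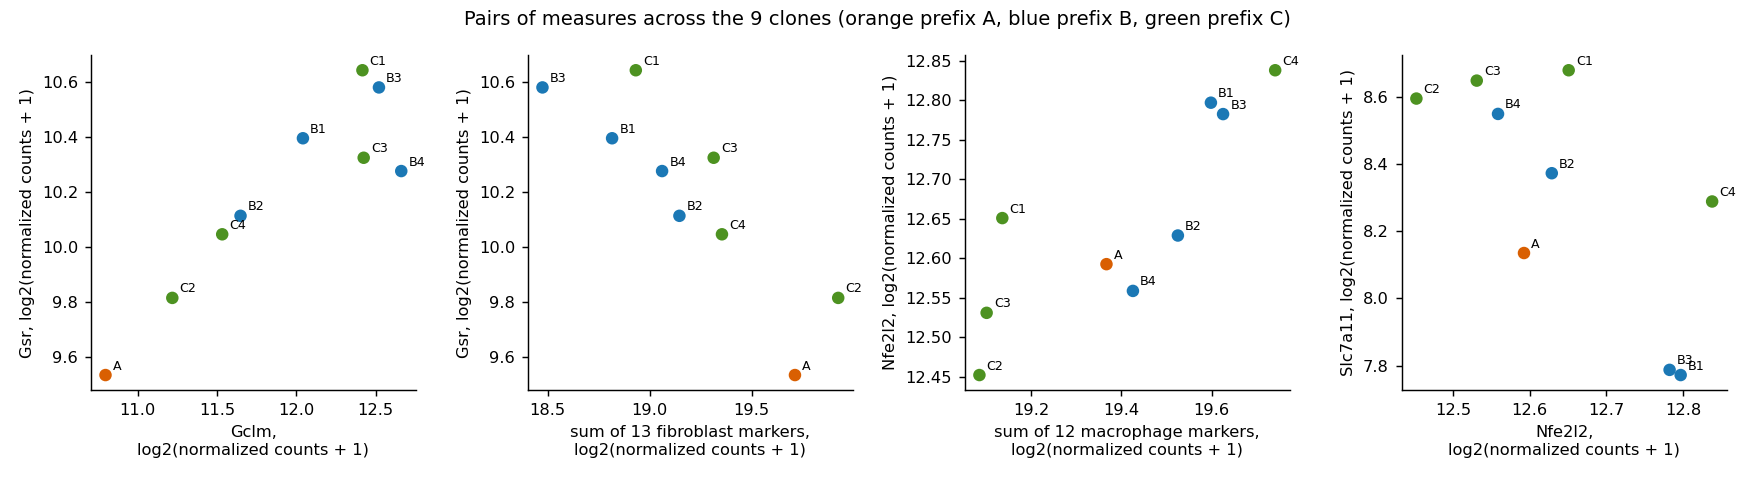
Each panel plots a pair of measures over the 9 clones on log2 scales, with library names beside the points and colours by prefix. Gsr rises with Gclm (r = 0.907) and falls with the fibroblast sum (r = −0.867), Nfe2l2 rises with the macrophage sum (r = 0.838), and Slc7a11 falls with Nfe2l2 (r = −0.705, not past the threshold after adjustment).

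Prefix C was compared with prefix B, the only split of more than 1 library that the names give, with limma on log2 values of all genes. Of the 10 genes, 0 passed and 0 passed unadjusted, beside 29 of 14703 genes (0.197%) adjusted, 17 of them higher (0.116%) and 12 lower (0.0816%) in prefix C, and 2953 (20.1%) unadjusted. With voom on recovered reads 35 genes and 0 of the 10 passed. The 10 genes had a median difference (C minus B) of −0.10, and 9 of the 10 were negative, beside a median of −0.02 over all genes. Upper-quartile scaling left 7 of the 10 negative. The exception among the signs was Slc7a11, with 285 ± 78.9 in prefix B and 377 ± 44.3 in prefix C (SD, n = 4 each) and a log2 difference of 0.43 (95% interval −0.02 to 0.88, limma adjusted p = 0.26). Nqo1 had the largest difference, with 1549 ± 730 (SD, n = 4) in prefix B and 834 ± 374 in prefix C, a log2 difference of −0.92 (95% interval −1.99 to 0.15, limma adjusted p = 0.30).

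For the other 8 genes the 95% interval of the difference was narrowest for Keap1, at −0.33 to 0.06, and widest for Gclm, at −1.07 to 0.43. The ranges of prefix B and prefix C overlapped for all 10 genes, beside 10.3% of all genes without overlap. Of the wider list, 0 of 55 passed and 9 passed unadjusted, and the ranges of 6 of 55 did not overlap (10.9%, near the share of all genes). These 6 were chosen after their values were seen. Gpx1 and Abcc1 were higher in prefix C, and Aldh3a1, Slc48a1, Idh1 and Mgst1 were lower there. Mgst1, a microsomal glutathione transferase, was at 2011 to 2710 in prefix B and at 1019 to 1809 in prefix C. Prefixes B and C also differed in Xist and Ddx3y, and so in sex as read from these genes. The fibroblast sum was 1.43% to 2.23% in prefix B and 1.96% to 3.85% in prefix C. The macrophage sum was 2.73% to 3.18% in prefix B and 2.16% to 3.36% in prefix C. All 12 macrophage markers had a negative difference (median −0.32, 0 called and 6 unadjusted by limma). Of the 13 fibroblast markers, 10 had a positive one (median of the 13 0.65, 0 called and 7 unadjusted). Lum (−2.07), Dcn (−1.79) and Fap (−0.20) went the other way, and Dcn was among the 7. Their part in the differences of the 10 genes was not tested. What else the prefixes stand for cannot be told apart from them.

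The association with Mettl3 asked whether the genes followed the level of Mettl3 mRNA within the 1 condition available. Reads of the transgene and of the endogenous gene are not separated in this level. Of the 10 genes, 0 passed, beside 386 of 14704 genes (2.63%), 53 with a positive (0.360%) and 333 with a negative (2.26%) slope. Unadjusted, 2 of the 10 passed, beside 15.0% of all genes. They were Gclm, with a slope of −0.59 ± 0.24 (log2 per log2 of Mettl3, SE, n = 9, 95% interval −1.13 to −0.05, limma adjusted p = 0.28), and Gsr, with a slope of −0.34 ± 0.13 (SE, n = 9, 95% interval −0.63 to −0.04, limma adjusted p = 0.26). Voom on recovered reads called 60 genes and 0 of the 10. Of the wider list, 0 of 55 passed and 7 passed unadjusted.

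This fit rested on library A, which alone held high Mettl3. Without it 0 of 14702 genes passed (1630 unadjusted), the slope of Gclm was −0.04 (95% interval −2.78 to 2.71), and that of Gsr turned to 0.16 (95% interval −1.30 to 1.62). The slope of Nqo1 turned from −0.57 (95% interval −1.48 to 0.34, limma adjusted p = 0.55) to 2.26 (95% interval −1.86 to 6.37, adjusted p = 0.62). Over the 8 other libraries only the interval of Slc7a11 left out 0, with a slope of −1.60 (95% interval −3.10 to −0.10, limma adjusted p = 0.44). In these 8 libraries Mettl3 was at 515 to 621 in prefix B and at 468 to 502 in prefix C. Slopes over them therefore cannot be told apart from the prefixes. With prefix as a covariate the slope was −1.14 for Slc7a11 (95% interval −3.91 to 1.63) and −0.99 for Nqo1 (95% interval −7.90 to 5.93). Library A was also the shallowest and the only library of its prefix, so Mettl3 level and prefix A cannot be told apart.

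**Figure D5:**
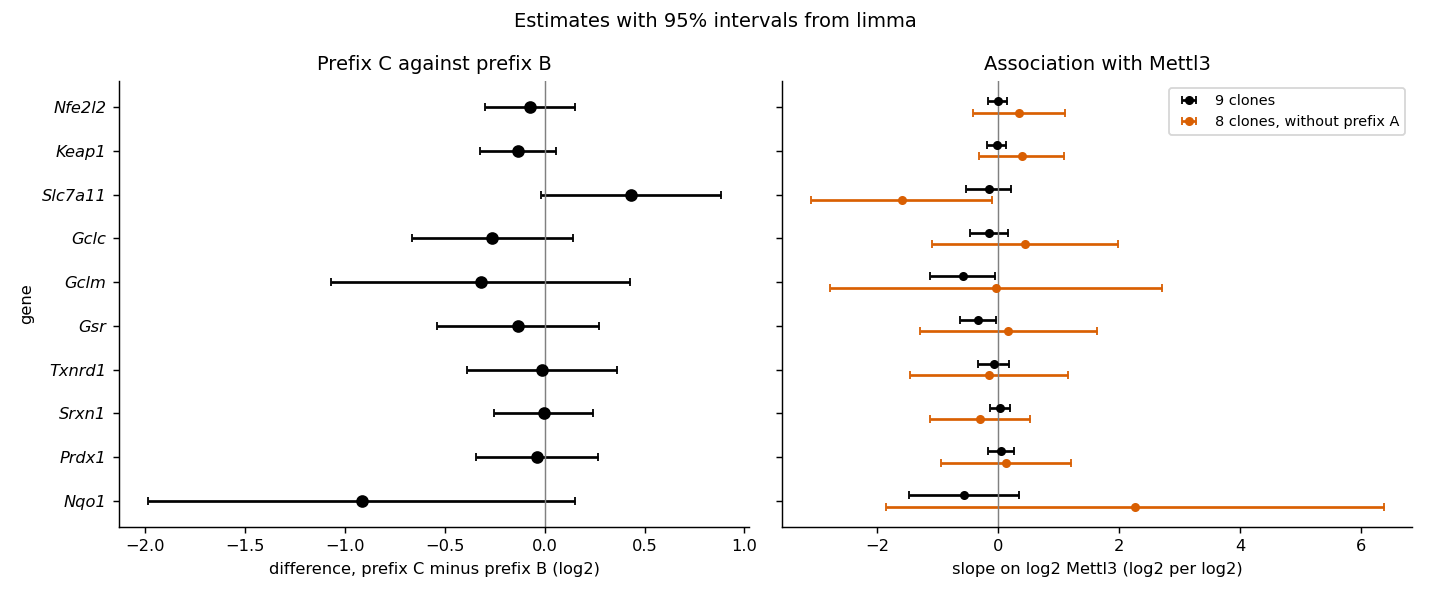
Estimates for the 10 genes with 95% intervals from limma, as the log2 difference of prefix C from prefix B (left, 4 libraries each) and as the slope on log2 Mettl3 (right, with 9 clones in black and with 8 clones, without library A, in orange). All intervals on the left hold 0, and on the right Gclm and Gsr lie below 0 only with library A included.

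The genes whose pattern was most like that of Nqo1 were sought among the 12271 genes that averaged 50 or more normalized counts, by Pearson's r over the 9 clones, as a description without a test. They were Ccnh (r = 0.951), Tpst2 (r = 0.926), Cxcl14 (r = 0.923), Gucy1b1 (r = 0.915) and Gm2223 (r = 0.899). Cxcl14, a secreted chemokine, was at 160 normalized counts in C4, the lowest clone for Nqo1, and at 3193 in B2, the highest. None of the 55 genes of the wider list reached r = 0.8 with Nqo1, beside 0.382% of all genes ranked. Their median r with Nqo1 was 0.137, beside 0.003 over all genes ranked. The highest r, 0.691, was that of Aldh3a1, which averaged 10.3 normalized counts, below the filter of 50, and was at 0 in A, C2 and C4. Among genes of the wider list past that filter, Sqstm1 was highest (r = 0.680).

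The same description for Gclm was added after its values were seen. Dock5 (r = 0.987), Ctnnbip1 (r = 0.978), Stk32c (r = 0.970), Mfsd14b (r = 0.968) and Slc7a8 (r = 0.957) were most like it. Dock5, a guanine nucleotide exchange factor, ran from 1261 normalized counts in A to 1909 in B4, the same lowest and highest clones as Gclm. Slc7a8, an amino acid transporter that pairs with the product of Slc3a2, ran from 2834 in A to 13884 in B3. Of the 55 genes of the wider list, 7 had r of at least 0.8 with Gclm, beside 3.64% of all genes ranked. These were Taldo1 (0.886), Pgd (0.873), Slc3a2 (0.867), Cat (0.856), Sod1 (0.853), Slc48a1 (0.831) and Ftl1 (0.822), which serve the pentose phosphate pathway, amino acid transport, the removal of hydrogen peroxide and superoxide, haem transport and iron storage. The median r of the wider list with Gclm was 0.30, beside 0.00 over all genes ranked, and the lowest was that of Prdx3, a mitochondrial peroxiredoxin, at −0.782.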

How the data were processed

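RNA of 9 MPC clones was sequenced from TruSeq stranded mRNA libraries. The submitters' processing notes list FastQC 0.11.9, STAR 2.7.10, RSEM 1.3.3 and the build GRCm38, and the software used for scaling is not given in the sources used here. The deposited log2 values hold a count scaled by the authors with 1 factor per library plus an offset of 4. Normalized counts were taken as 2 to the power of the value minus 4, and reads were recovered from their steps (100% of values under 1000 reads lay within 0.1 of a whole number). Another 6 columns of per-sample values, from other studies, were not used. Column names match the group of the samples and no sample's number, so libraries were assigned to the group only. The most similar libraries, B1 and B4, differed by more than sampling noise (chi-square 22.6 per degree of freedom over 15353 genes), so all 9 were kept.

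Genes averaging 10 or more normalized counts were fitted on log2(normalized count + 1) with limma 3.58.1 (trend, two-sided, Benjamini-Hochberg over all genes, threshold 0.05) in R 4.3.3, with voom on recovered reads as an alternative. A fold change on this scale understates the change of low genes. Correlations used exact permutation tests in Python 3.11.15. Scripts were tested on simulated data. The text names the 10 genes, the genes of lowest and highest SD in each sublist of the wider pathway list, and the 5 genes most like Nqo1. Other genes were named after their values were seen: those most like Gclm, those of the wider list with r of at least 0.8 with Gclm or the extreme r with Nqo1 or Gclm, those without overlap between prefixes, and those with 1 clone standing apart. Sqstm1 and the fibroblast markers Lum, Dcn and Fap were also named after their values were seen. Mettl3, Xist, Ddx3y and Epcam describe the libraries, and Slc3a2 and Prdx1-ps are named for Slc7a11 and Prdx1. The 10 genes, the marker lists and the wider list were chosen with earlier results of these data known. Gene positions are from RefSeq (GRCm38.p6).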

Additional observations from a re-analysis of the deposited data

Results flagged for a closer look

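In 4 of the 65 genes examined, the 10 NRF2 pathway genes and the 55 of the wider list, a single clone stood apart from the other 8, in that the gap to its neighbour, as a part of the whole range, was above Dixon's 95% limit for 9 values. Chance gives about 1 in 20, or 3.25 of 65. Txnrd1 was highest in C1 at 9146 normalized counts, with the next clone at 7097 (gap 0.511 of the range). Prdx1 was lowest in C2 at 16856, with the next clone at 21898 (0.614). Prdx6, a 1-cysteine peroxiredoxin, was highest in C1 at 4736, with the next at 3370.4 (0.759). Prdx3 was highest in A at 1299.9, with the next at 1101 (0.535).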

How the results depend on the processing

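No paired analysis was possible because the 9 clones are 1 condition, with no second group to pair them with. In the 3 limma comparisons, 0 of the antioxidant genes passed under any of the 13 to 15 alternatives each. Over all genes, calls between prefixes C and B ran from 8 (without B1) to 263 (without C3) when 1 library was left out, against 29. Calls with Mettl3 were 386, 60 with voom, 0 without library A, 0 with prefix as a covariate, and 295 to 494 without 1 of the others. Without library A the slopes on Mettl3 of Gsr and Nqo1 turned to 0.16 and 2.26. The 1 pair called fell to 0 without library A, centred within prefixes and by Spearman's rho, and was 0 to 1 when 1 library was left out. The 3 relations with marker sums fell to 0 without library A and without the 2 farthest clones, to 1 with upper-quartile scaling, and were 0 to 3 when 1 library was left out. The exclusions leave fewer clones, whereas Spearman's rho and upper-quartile scaling kept all 9. Why calls were lost was not tested. Leaving out libraries other than A in the fits on Mettl3 and Nfe2l2 and in the correlations was chosen after seeing the data. Rescaling to the upper quartile or to the library total moved the mean of an antioxidant gene by at most 0.415% and 0.464%. With 9 clones of 1 condition, a gene that did not pass may still differ by an amount inside its printed interval.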
